A study of Mus musculus with 6 samples.

Results

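The mouse miR-17-92 and miR-106b-25 clusters were read out, by stem, as 16 of the 690 miRNA names on the arrays, which carry the prefix mmu- for mouse, mostly left out here. Names were taken by stem: miR-17, miR-18a, miR-19a, miR-20a, miR-19b, miR-92a, miR-106a, miR-106b, miR-93 or miR-25, with either arm and whether or not a signal was detected. No name with the stem miR-106a occurred in the files, nor did one for the 5p arm of miR-19b or of miR-25. RNA came from 2 groups of cells sorted from transgenic mice that carry an SMA-GFP reporter, in which GFP follows smooth muscle actin expression. The first group was 3 preparations (numbered 3, 4 and 6) of cells with strong GFP from wounds at day 7 after injury, labelled as myofibroblasts. The second was 3 preparations (numbered 1, 2 and 5) of cells with weak GFP from the dermis, labelled as fibroblast-like cells of the skin. In both groups haematopoietic cells (CD45+) and endothelial cells (CD31+) had been sorted away. Tissue of origin and GFP level changed together between the groups and cannot be told apart. The strain, sex and age of the mice, and whether animals were pooled, are not given in the sources used here, so p-values cover only how much these preparations vary, and that variation may be technical. Below, the groups are called wound and skin, and a difference is wound minus skin on the log2 scale.

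miR-17-92 is a polycistron: 1 primary transcript is cut into several hairpins, each of which yields a mature miRNA of about the same length. The cluster is known as a target of MYC and E2F and for promoting cell cycle entry and survival. Its paralogue miR-106b-25 lies within Mcm7, which encodes a subunit of the replicative helicase, and is transcribed with it. A miRNA finds its target mRNAs mainly through its seed (bases 2 to 8), so members with the same seed share many predicted targets whichever cluster they come from. In the RefSeq annotation (GRCm38.p6) the 6 hairpins of miR-17-92 spanned chr14:115043671-115044506 on the plus strand (836 bases). The 3 hairpins of miR-106b-25 spanned chr5:138165321-138165818 on the minus strand (498 bases), inside Mcm7. Another paralogue, miR-106a-363, spanned chrX:52741693-52742567 on the minus strand (875 bases) and encodes further copies of miR-19b-3p and miR-92a-3p. miR-92a-2-5p, taken in by its stem, is encoded there and in neither of the named clusters. The mature sequences of the miR-19b-3p and miR-92a-3p copies are the same, so the arrays cannot tell the chromosome of origin.

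Of the 16 names, 15 had a mature sequence in the RefSeq table, and miR-19a-5p is named only. The sequences on which the comparisons turn are given 5′ to 3′ with the seed in capitals, to show which members share one. The seed AAAGUGC was common to 4 members, miR-17-5p and miR-20a-5p of miR-17-92 and miR-93-5p and miR-106b-5p of miR-106b-25, and to miR-20b-5p of miR-106a-363, which is no member:
miR-17-5p: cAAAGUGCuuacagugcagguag
miR-20a-5p: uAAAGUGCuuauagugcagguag
miR-93-5p: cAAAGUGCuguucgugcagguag
miR-106b-5p: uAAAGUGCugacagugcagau
miR-20b-5p: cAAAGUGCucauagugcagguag
The seed of miR-18a-5p, AAGGUGC, was held by no other member:
miR-18a-5p: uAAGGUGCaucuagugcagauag
The 2 miR-19 members shared GUGCAAA and differed at 1 of 23 bases, outside the seed:
miR-19a-3p: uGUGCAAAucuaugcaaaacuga
miR-19b-3p: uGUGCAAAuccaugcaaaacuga
The seed AUUGCAC was shared by 1 member of each cluster, which differed at 3 of the 21 positions compared from the 5′ end:
miR-92a-3p: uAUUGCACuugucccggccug
miR-25-3p: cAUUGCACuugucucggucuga
Within the AAAGUGC family, miR-106b-5p differed from miR-20a-5p at 3 and from miR-93-5p at 5 of 21 positions. miR-17-5p and miR-20a-5p differed at 2 of 23, as did miR-20a-5p and miR-20b-5p. Whether a probe also binds a close relative was not tested.

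Each member was measured by 20 spots on each array. A name counted as detected on an array when 1 of its probes was well above background, that is, when over 50% of that probe's spots carried the scanner's flag. By this rule 7 members were detected on all 6 arrays: miR-19a-3p, miR-19b-3p, miR-20a-5p, miR-92a-3p, miR-106b-5p, miR-93-5p and miR-25-3p. miR-18a-5p was detected on all 3 wound arrays and on skin array 5. The arm that usually is the less abundant product of each hairpin was mostly not detected, and neither was miR-17-5p, the member from which the larger cluster takes its name. The 7 names never detected were miR-17-5p, miR-18a-3p, miR-19a-5p, miR-20a-3p, miR-92a-2-5p, miR-93-3p and miR-106b-3p, with mean processed signals between -5.90 and 4.58 intensity units. miR-17-3p was detected on wound arrays 4 and 6 and skin array 5 and was not tested. Whether the probes for miR-17-5p are able to detect it was not examined. The number of members detected was 8, 9 and 9 on wound arrays 3, 4 and 6, against 7, 7 and 9 on skin arrays 1, 2 and 5. The groups overlapped, and an exact two-sided permutation test of the difference gave p = 0.4, where the smallest p possible with these arrays is 0.1.

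**Figure D1:**
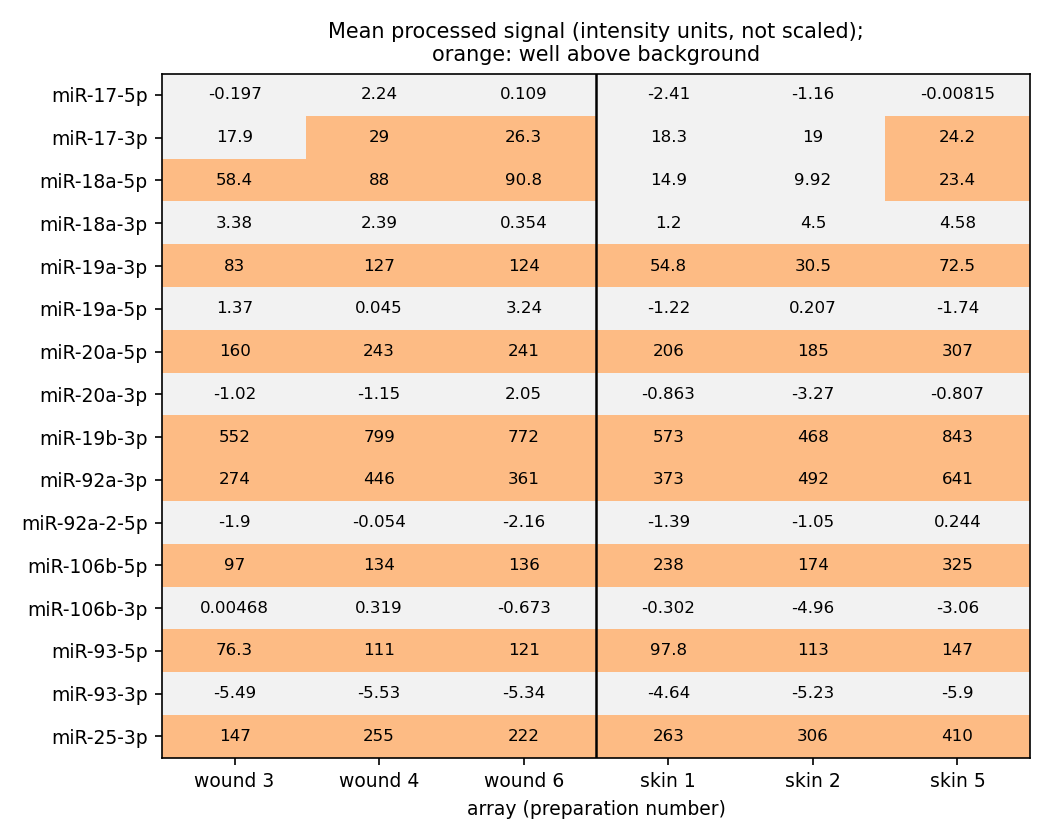
Mean processed signal in intensity units, before scaling, of the 16 members (rows) on the 3 wound arrays (left) and the 3 skin arrays (right); orange cells were well above background. 8 members are orange on every wound array, and 7 of those are orange on every skin array.

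All 6 arrays lay on 1 slide, and 187 to 233 names were detected per array. To compare arrays, each array was scaled to the 75th percentile of its probes that were detected on all 6 arrays, and signals were raised to a common floor of -5.30 (log2) and taken to log2. That percentile was 786 to 1137 intensity units on the wound arrays and 1244 to 1772 on the skin arrays, so scaling adds to every wound minus skin difference. With limma and Benjamini-Hochberg adjustment over 222 tested miRNAs, 64.9% passed at 0.05, with 98 (44.1%) higher and 46 (20.7%) lower in wound cells. Of these calls 68.1% were higher, against 40.6% with the percentile over all probes, 50% with the median as the scale or without scaling, and 54.2% after quantile normalization. The median difference of all tested miRNAs was 0.38. It was -0.19 with the percentile over all probes, 0.00 with the median as the scale, 0.06 after quantile normalization, -0.09 without scaling and 1.32 after normexp background correction. A miRNA near 0.38 therefore lay at the middle of all miRNAs, and its direction turns on the scaling.

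The groups rest on the titles of the scanner files. The column numbers of the authors' deposited table of log2 values matched the preparation numbers of the titles for none of the 6 arrays. Columns 1 to 3 of it held arrays 3, 4 and 6, and columns 4 to 6 held arrays 1, 2 and 5. If that table is grouped by column number instead, no member and no other miRNA passes at an adjusted p of 0.05 by limma, and 1 miRNA has an unadjusted p under 0.05.

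The labelled cell types were set against marker miRNAs. Of 5 mesenchymal names (miR-199a, miR-199b and miR-214), all 5 were detected on every array, with summed scaled levels of 15.3 to 16.9 in wound and 20.1 to 24 in skin preparations. None of them passed as higher and 2 passed as lower, miR-199a-3p (-0.62, limma adjusted p = 0.0104) and miR-199b-5p (-0.75, limma adjusted p = 0.0072). The difference was 0.45 for miR-214-3p (limma adjusted p = 0.106) and -0.0019 for miR-199a-5p. The mean of miR-214-5p lay at the floor in both groups, so it could show no change. Of 5 names of contractile cells and myofibroblasts (miR-143, miR-145a and miR-21a), 3 passed as higher and none as lower. Over all tested miRNAs these shares were 44.1% and 20.7%. miR-145a-3p was never detected, and the mean of miR-21a-3p lay at the floor in both groups, so neither could show a change. The summed levels of the 5 names were 18.7 to 20 in wound and 3.81 to 4.8 in skin. These sums are mostly miR-21a-5p, whose mean log2 levels were 4.24 in wound and 2.01 in skin. Those of miR-143-3p were -1.37 and -2.61, and those of miR-145a-5p -4.59 and -5.23. The rise of miR-145a-5p was tested only through its detection on the wound arrays, and its skin mean lies near the floor. Of 12 keratinocyte names, 10 were never detected, and the other 2 (miR-203-3p and miR-205-5p) had signal only in skin. Their wound means lay at the floor of -5.30, against -3.85 and -4.39 in skin, so the floor sets the size of the differences (-1.45 and -0.92). Their limma adjusted p-values of 0.00436 and 0.0278 carry no weight. Both names were tested only through their detection on the skin arrays, and the floor removes the spread in wound. The keratinocyte sums were 0.00513 to 0.0092 in wound and 0.12 to 0.204 in skin. Of 7 blood cell names, 6 were never detected and miR-451a was detected on 2 skin arrays; their sums were 0.0272 to 0.0356 in wound and 0.016 to 0.0321 in skin. miR-126-3p, the endothelial marker, was detected on all arrays (0.50, limma adjusted p = 0.11), with summed endothelial levels of 0.0555 to 0.0773 in wound and 0.0362 to 0.0583 in skin. The part of these cells in the members' differences was not tested.

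Of the 8 members tested, 4 passed as higher and 1 as lower in wound cells, and 3 did not pass; the shares over all tested miRNAs were 44.1% and 20.7%. The groups did not overlap for 6 of the 8, against 69.8% of all tested miRNAs. The median difference of the 8 was 0.42, against 0.38 over all. These counts are near the background. They include miR-18a-5p, which was tested only because of its detection on the wound arrays. Of the 7 detected on all arrays, 3 passed as higher and 1 as lower. A fit of only the 156 miRNAs detected on all arrays gave the same counts for these members, with 59 of the 156 higher and 37 lower. Under this scaling, the differences of miR-18a-5p, miR-19a-3p and miR-19b-3p lay above those of the other tested members, and miR-106b-5p was the member that passed as lower.

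mmu-miR-19a-3p, of the GUGCAAA family, rose in wound cells. Its scaled log2 level was -3.24, -3.10 and -3.20 on the wound arrays and -4.76, -5.30 and -4.61 on the skin arrays. All 3 wound values were above all 3 skin values, of which that of preparation 2 sat at the floor. The means were -3.18 ± 0.07 in wound and -4.89 ± 0.36 in skin (SD, n = 3 each), a difference of 1.71 (SE 0.20, 95% interval 1.21 to 2.21), or 3.27-fold, with a limma adjusted p of 0.001. Before scaling its signal was 83.0, 127 and 124 intensity units in wound against 54.8, 30.5 and 72.5 in skin, again without overlap. Its 2 probes differed by 1.66 and 1.58. The second had a skin mean of -5.23, near the floor, and was well above background on 2 of the 3 skin arrays. The floor therefore limits the size of its difference. The difference was 0.95 to 1.71 over 5 scalings and passed in 4, with an adjusted p of 0.0534 without scaling. It also failed to pass when the floor was raised 4 times (0.12, limma adjusted p = 0.0902).

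mmu-miR-18a-5p, whose known targets include the matricellular gene Ccn2 (CTGF), had log2 levels of -3.75, -3.64 and -3.65 on the wound arrays. On the skin arrays it lay at the floor of -5.30 all 3 times. The groups did not overlap, and the skin values have no order among themselves. The wound mean was -3.68 ± 0.06 and the skin mean -5.30 ± 0 (SD, n = 3 each), a difference of 1.62 whose size is set by the floor. It was 0 when the floor was raised 4 times and 3.11 with the scanner software's total signal. The limma adjusted p of 4.43e-06 carries no weight, because this member was tested only through its detection on the wound arrays and the floor removes the spread in skin. In intensity units before scaling the signal was 58.4, 88.0 and 90.8 in wound and 14.9, 9.92 and 23.4 in skin. The group means of the scaled signal before the floor stood in a ratio of 7.52, wound over skin, with 2 of the 3 skin arrays not well above background. Its 2 probes differed by 0.90 and 2.10, both against skin values at the floor. Over the 5 scalings the floored difference was 1.15 to 1.62.

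mmu-miR-19b-3p, the partner of miR-19a-3p in the GUGCAAA family, had log2 levels of -0.51, -0.45 and -0.56 in wound and -1.37, -1.41 and -1.07 in skin. Every wound value was above every skin value. The means were -0.51 ± 0.05 in wound and -1.29 ± 0.19 in skin (SD, n = 3 each), a difference of 0.78 (SE 0.10, 95% interval 0.51 to 1.05), or 1.72-fold, with a limma adjusted p of 0.00192. Its probes differed by 0.75 and 0.89. It passed in 3 of the 5 scalings and stayed above 0 in all 5, at 0.09 to 0.78. Its signals before scaling overlapped, with 552, 799 and 772 intensity units in wound and 573, 468 and 843 in skin.

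miR-20a-5p, a member of the seed family known to repress the cell cycle inhibitor Cdkn1a, had log2 levels of -2.30, -2.17 and -2.24 in wound and -2.85, -2.75 and -2.53 in skin. The groups did not overlap. The means were -2.24 ± 0.06 in wound and -2.71 ± 0.16 in skin (SD, n = 3 each), and the difference of 0.47 (SE 0.10, 95% interval 0.23 to 0.72; 1.39-fold) had a limma adjusted p of 0.00895. The median over all tested miRNAs was lower than this by 0.09. It passed in 1 of the 5 scalings and turned negative in 3, at -0.21 with the percentile over all probes, -0.06 after quantile normalization and -0.11 without scaling. It did not pass with the scanner software's total signal (0.32, limma adjusted p = 0.131) or when all 690 names were tested (limma adjusted p = 0.0556). miR-20b-5p, which shares its seed and is encoded on the X chromosome, gave 0.52 (SE 0.09, limma adjusted p = 0.00627) and turned negative in the same 3 scalings. None of the other 6 related names looked up (miR-18b-5p, miR-20b-3p, miR-363-3p, miR-92b-3p, miR-32-5p and miR-367-3p) was detected on any array.

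miR-92a-3p, the last hairpin product of miR-17-92, did not pass. Its log2 levels were -1.52, -1.30 and -1.66 in wound and -1.99, -1.34 and -1.47 in skin. The groups overlapped. The difference was 0.11 (SE 0.21, 95% interval -0.42 to 0.64, limma adjusted p = 0.683), and across the 5 scalings it lay between -0.58 and 0.11 and was below 0 in 4. It passed as lower in 1 of them, the percentile over all probes (-0.58, limma adjusted p = 0.0325).

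In miR-106b-25, no member passed as higher. mmu-miR-106b-5p, which carries the same seed as miR-20a-5p, had log2 levels of -3.02, -3.03 and -3.07 in wound and -2.64, -2.84 and -2.45 in skin. Every wound value was below every skin value. The means were -3.04 ± 0.03 in wound and -2.64 ± 0.19 in skin (SD, n = 3 each), a difference of -0.40 (SE 0.11, 95% interval -0.67 to -0.12) with a limma adjusted p of 0.0237, so that skin was 1.32-fold above wound. In intensity units before scaling it had 97.1, 134 and 136 in wound against 238, 174 and 325 in skin, again without overlap. Both probes were lower in wound cells, by differences of -0.35 and -0.55. It passed as lower in all 5 scalings, at -1.08 to -0.40. Under the main scaling the call was lost without wound array 3, 4 or 6 or skin array 1, where the adjusted p was 0.0645, 0.0667, 0.0727 and 0.0615 by limma, with differences of -0.41, -0.40, -0.38 and -0.40. It was also lost when the floor was raised 4 times (limma adjusted p = 0.0532) and when all 690 names were tested (limma adjusted p = 0.127), at the same difference.

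miR-93-5p, the second AAAGUGC member of that cluster, had log2 levels of -3.36, -3.30 and -3.23 in wound and -3.93, -3.46 and -3.59 in skin. The groups did not overlap, yet the difference of 0.36 (SE 0.13, 95% interval 0.02 to 0.70) did not pass, with a limma adjusted p of 0.0621. It passed without skin array 1 (0.23, limma adjusted p = 0.0471) or skin array 2 (0.46, limma adjusted p = 0.0362). In the other 4 scalings it lay below 0 and did not pass, down to -0.32. 1 of its 2 probes was never detected, so the value rests on the other, which gave 0.35.

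miR-25-3p, which shares its seed with miR-92a-3p, had log2 levels of -2.42, -2.10 and -2.35 in wound and -2.50, -2.02 and -2.11 in skin. The groups overlapped, and the difference was -0.08 (SE 0.16, 95% interval -0.50 to 0.33, limma adjusted p = 0.685). It stayed below 0 in all 5 scalings, at -0.77 to -0.08, and passed as lower in 3 of them.

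**Figure D2:**
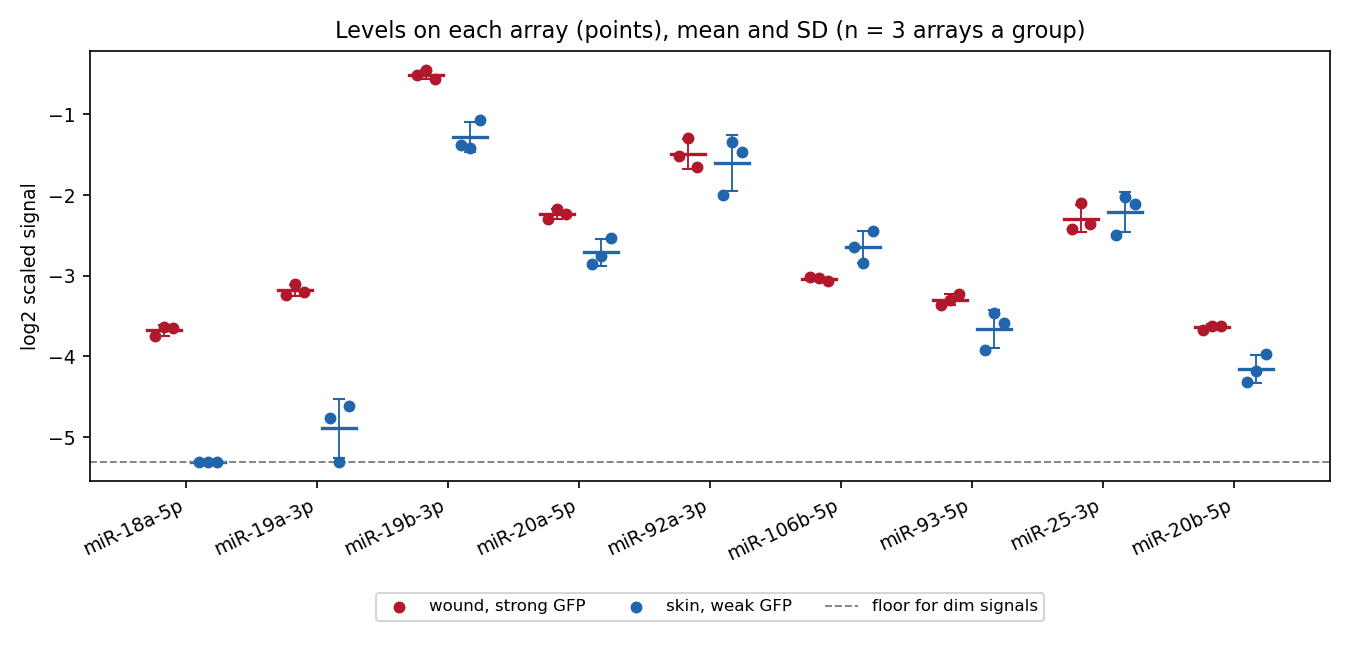
Scaled log2 signal on each array (points) with the mean and SD (bars, n = 3 per group) of the 8 tested members and of miR-20b-5p, wound left of skin; the dashed line is the floor of -5.30. Heights are comparable between groups of 1 miRNA, not between miRNAs, and miR-106b-5p is the member whose wound points all lie below its skin points.

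**Figure D3:**
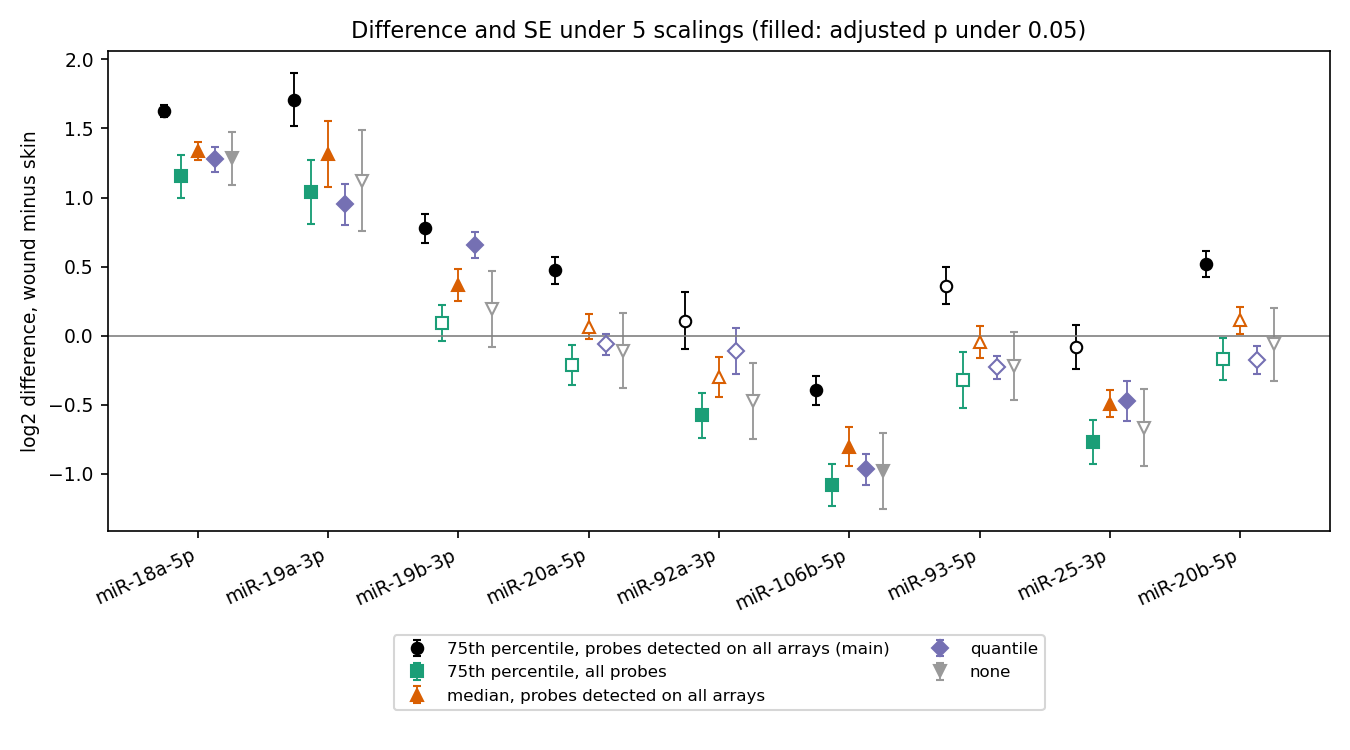
Wound minus skin log2 difference with its SE (y axis) of the same miRNAs (x axis) under 5 scalings; filled symbols passed at an adjusted p of 0.05. miR-18a-5p, miR-19a-3p and miR-19b-3p lie above 0 and miR-106b-5p and miR-25-3p below 0 in all 5, while miR-20a-5p, miR-92a-3p, miR-93-5p and miR-20b-5p lie on both sides.

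The arrays lay in both rows of the slide, with wound array 3 and skin arrays 1 and 2 in row 1 and wound arrays 4 and 6 and skin array 5 in row 2. Within row 1 and row 2 the differences were 1.79 and 1.46 for miR-19a-3p, 1.55 and 1.66 for miR-18a-5p, 0.88 and 0.57 for miR-19b-3p, 0.50 and 0.32 for miR-20a-5p and -0.28 and -0.60 for miR-106b-5p. Each of the 5 had the same sign in both rows, and all 5 passed with row in the fit. For miR-18a-5p this carries no weight, since its skin values lie at the floor and it was tested only through wound. After normexp background correction with an offset of 50, which raises dim signals, no member passed, and the difference of miR-106b-5p turned to 0.75 (limma adjusted p = 0.282). In bulk RNA of sorted cells, fewer cells that carry a miRNA and less of it per cell cannot be told apart.

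Seed families and clusters were next compared within arrays, through each miRNA's ratio to miR-20a-5p on the same array. miR-17-5p had been chosen as the denominator and was not detected, and miR-20a-5p was the next in order. Where both signals lie above the floor, the ratio does not depend on a scaling factor between arrays. It does where the numerator sits at the floor, which was so for miR-18a-5p on all 3 skin arrays and for miR-19a-3p on skin array 2. A difference in the ratio shows unequal change of the numerator and miR-20a-5p, not which of them changed. Of 221 miRNAs set against miR-20a-5p, 63.8% passed, 60 (27.1%) higher and 81 (36.7%) lower. Of 7 members, 2 passed as higher, 2 as lower and 3 did not pass, so their share is near that of all miRNAs. The ratios of 5 of the 7 did not overlap between groups, against 66.5% of all miRNAs.

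The 2 that passed as higher were miR-19a-3p and miR-18a-5p of miR-17-92. The log2 ratio of miR-19a-3p to miR-20a-5p was -0.94, -0.93 and -0.96 in wound and -1.91, -2.55 and -2.08 in skin. The ratios did not overlap, and differed by 1.24 (SE 0.18, 2.35-fold, limma adjusted p = 0.000447). That of miR-18a-5p was -1.45, -1.47 and -1.41 in wound and -2.45, -2.55 and -2.77 in skin, a difference of 1.15. Its skin ratios are the floor over miR-20a-5p, so the size of this difference and its limma adjusted p of 0.000131 carry no weight. The ratio of miR-19a-3p kept its call without any 1 array, and was higher in both rows of the slide, by 1.29 and 1.13. After normexp correction neither passed, at 0.70 (limma adjusted p = 0.14) for miR-19a-3p and 0.84 (limma adjusted p = 0.123) for miR-18a-5p. With a floor 4 times as high the differences turned negative, at -0.35 and -0.47, since the dim numerators then sit at or near the floor in both groups.

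Both that passed as lower belong to miR-106b-25. The log2 ratio of miR-106b-5p to miR-20a-5p was -0.72, -0.85 and -0.83 in wound and 0.21, -0.08 and 0.08 in skin. All 3 wound ratios were below all 3 skin ratios. The numerator and denominator share a seed and come from different clusters. The difference was -0.87 (SE 0.14, 95% interval -1.18 to -0.56, limma adjusted p = 0.000624), so that the ratio was 1.83-fold higher in skin. It was -0.78 within row 1 and -0.92 within row 2, and it passed without any 1 array, with a limma adjusted p of at most 0.00387. The log2 ratio of miR-25-3p was -0.12, 0.07 and -0.12 in wound and 0.35, 0.73 and 0.42 in skin, which did not overlap. It differed by -0.56 (SE 0.15, limma adjusted p = 0.0118), by -0.66 within row 1 and -0.44 within row 2. It passed without any 1 array, though with a limma adjusted p as high as 0.0495. Neither ratio passed after normexp correction, at -0.29 and -0.38.

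miR-93-5p, from the same primary transcript as miR-106b-5p and miR-25-3p, did not differ detectably from miR-20a-5p. Its log2 ratio was -1.06, -1.13 and -0.99 in wound and -1.07, -0.71 and -1.06 in skin, with overlap, and the difference was -0.11 (SE 0.15, 95% interval -0.45 to 0.23, limma adjusted p = 0.54). The ratio of miR-19b-3p was 1.79, 1.72 and 1.68 in wound and 1.48, 1.34 and 1.46 in skin. It did not overlap between groups, and its difference of 0.30 (SE 0.12, limma adjusted p = 0.0613) did not pass. It passed without skin array 5 (0.32, limma adjusted p = 0.0488) and under 6 of 9 other settings, among them quantile normalization (0.72, limma adjusted p = 0.000761). The ratio of miR-92a-3p overlapped between groups and differed by -0.36 (SE 0.18, 95% interval -0.77 to 0.04, limma adjusted p = 0.104). Without skin array 1 it passed, at -0.49 (limma adjusted p = 0.0409), as it did under 3 of 9 other settings. miR-20b-5p, the relative of miR-20a-5p on the X chromosome, gave a ratio difference of 0.05 (SE 0.12, 95% interval -0.23 to 0.32, limma adjusted p = 0.783).

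**Figure D4:**
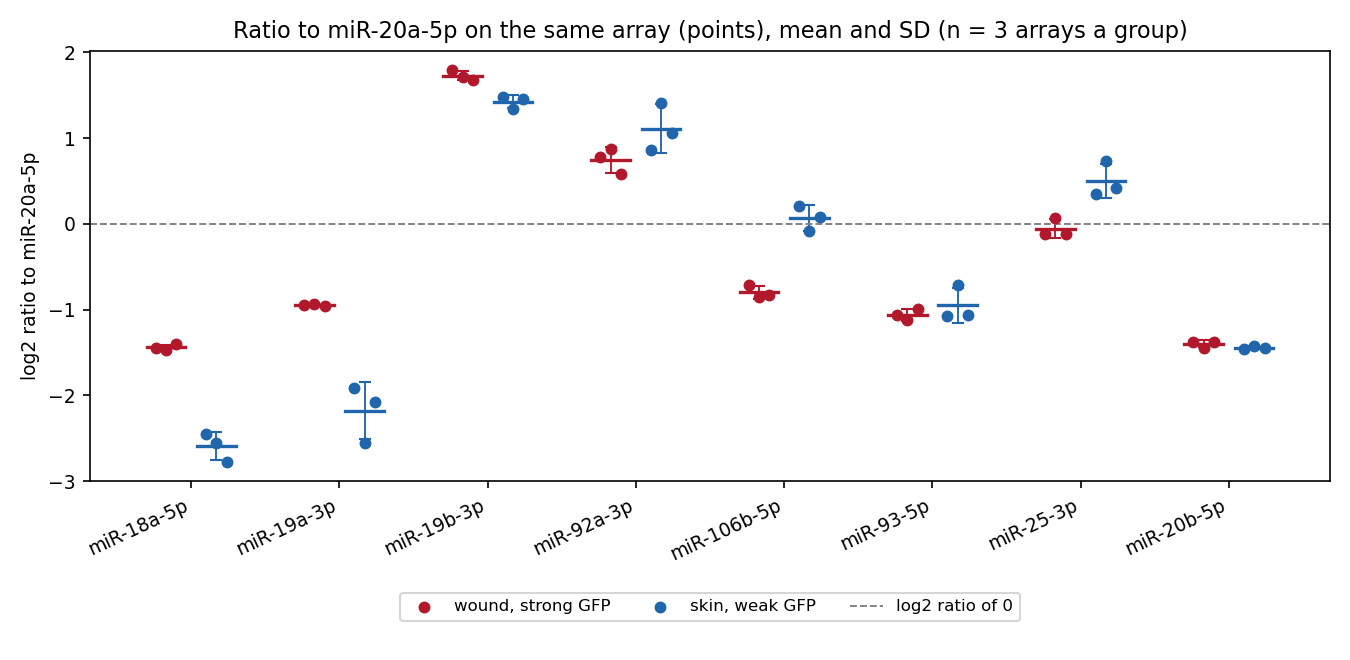
log2 ratio to miR-20a-5p on the same array (points) with the mean and SD (bars, n = 3 per group), wound left of skin; the dashed line marks a log2 ratio of 0, and heights are not comparable between miRNAs. Wound ratios lie above skin for miR-18a-5p, miR-19a-3p and miR-19b-3p and below skin for miR-106b-5p and miR-25-3p, and the groups overlap for miR-92a-3p, miR-93-5p and miR-20b-5p.

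Members of 1 seed family or 1 cluster were also set against each other directly, in 4 pairs chosen after their values had been seen, so the tests describe these arrays and are no independent support. In the AAAGUGC family of miR-106b-25, the log2 ratio of miR-106b-5p to miR-93-5p was 0.35, 0.27 and 0.16 in wound and 1.28, 0.63 and 1.14 in skin. The groups did not overlap, and the difference was -0.76 (SE 0.21, 95% interval -1.23 to -0.29). Its limma adjusted p was 0.0112, where 53.8% of all miRNAs set against miR-93-5p passed, and without any 1 array it was at most 0.0453. It did not pass after normexp correction (-0.46, limma adjusted p = 0.166). In the GUGCAAA family, the log2 ratio of miR-19a-3p to miR-19b-3p was -2.73, -2.65 and -2.64 in wound and -3.39, -3.89 and -3.54 in skin, again without overlap. It differed by 0.93 (SE 0.17, 1.91-fold, limma adjusted p = 0.00104), where 69.2% of all miRNAs set against miR-19b-3p passed. It did not pass after quantile normalization (0.29, limma adjusted p = 0.169) or normexp correction (0.92, limma adjusted p = 0.289), and with a floor 4 times as high it was -0.66, since miR-19a-3p is then near the floor throughout.

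In the AUUGCAC family, the log2 ratio of miR-25-3p to miR-92a-3p was -0.91, -0.81 and -0.70 in wound and -0.50, -0.69 and -0.64 in skin. Every wound ratio was below every skin ratio. The difference of -0.19 (SE 0.26, 95% interval -0.73 to 0.34, limma adjusted p = 0.568) did not pass, where 51.6% of all miRNAs set against miR-92a-3p did. Within miR-106b-25, the ratio of miR-25-3p to miR-93-5p differed by -0.45 (SE 0.17, limma adjusted p = 0.0494) and lost its call without 5 of the 6 arrays in turn and under each of the 5 other settings tried for it.

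Among the 206 tested miRNAs outside the clusters and their relatives that did not lie at the floor on every array, those with the pattern most like miR-19a-3p over the 6 arrays were miR-322-5p (Pearson's r = 0.992), miR-152-3p (r = 0.991) and miR-301a-3p (r = 0.988). Their wound minus skin differences were 3.44, 0.67 and 1.11, and 69 of the 206 had an r above 0.9. For miR-106b-5p they were miR-101b-3p (r = 0.978), miR-338-3p (r = 0.963) and miR-1839-5p (r = 0.954), with differences of -0.66, -0.79 and -0.38, and 10 of the 206 had an r above 0.9. The 6 arrays fall into 2 groups and share their scaling, so a high r mostly repeats the contrast between wound and skin, and it is given as a description with no test.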

How the data were processed

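Per the labels, the arrays were 1-colour miRNA arrays with Cy3-labelled total RNA. The deposited scanner files, read with Feature Extraction 10.7.3.1 per the file headers, hold background-subtracted spot intensity that is not normalized between arrays. A log2 table of the authors was deposited too; how they made it is not stated. Set against the scanner files, a column of it is 1 array's total signal on the log2 scale less a fixed amount (656 of 691 rows could be compared), so its scale is known and its centring is not, with column medians of -12.53 to -11.76.

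Spots without outlier flags were averaged per probe (2.14% to 3.11% of spots were flagged, 0 saturated, local background 49 to 55.5 units). Each array was scaled to the 75th percentile of its probes detected on all arrays, and probes were averaged per miRNA on the linear scale, raised to a floor of 0.0253 (the lowest scaled signal well above background, taken as a median across the arrays) and taken to log2. Testing required detection on every array of wound, of skin or of both, which 222 of 690 names met. limma 3.58.1 (lmFit, eBayes, two-sided, R 4.3.3) compared the groups without covariates, and p-values were adjusted by Benjamini-Hochberg over all tested miRNAs. The fit was tested on simulated data. The number of arrays limits the precision. Every tested name of the 2 clusters is given with its values, related names come from general knowledge, and the likest miRNAs are the 3 highest Pearson r. The members, lists and tests were chosen with earlier results of these data known.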

Additional observations from a re-analysis of the deposited data

How the results depend on the processing

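No paired analysis was possible because the sources used here do not say whether wound and skin preparations came from the same mice. The results were recomputed under 12 other settings, by the deposited table's column numbers, and without each of the 6 arrays. Members higher in wound (4 in the main analysis) numbered 2 with the percentile over all probes, 1 without scaling, 0 after normexp, 2 when the floor was raised 4 times and 0 by column number. Members lower (1) numbered 3 with the percentile over all probes, 2 with median scaling or quantile normalization, 0 after normexp, with the higher floor, without a filter on dim miRNAs and by column number, and 0 to 1 without 1 array. Relative to miR-20a-5p, 2 members were higher: this was 0 after normexp, 1 with the higher floor, 1 with miRNAs detected on all arrays only, and 0 by column number. The 2 lower became 0 after normexp, 6 with the higher floor and 0 by column number. Over all tested miRNAs, the 98 higher became 52 with the percentile over all probes, 54 without scaling, 17 after normexp, 44 with the higher floor, 59 with miRNAs detected on all arrays only and 0 by column number. The 46 lower became 76 with the percentile over all probes, 71 after quantile normalization, 5 after normexp and 0 by column number. Smaller changes in these counts are not listed. Among them, members higher numbered 3 with median scaling and 5 with array weights, and median scaling gave 66 miRNAs higher and 66 lower.

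Signs turned as follows. With the percentile over all probes, quantile normalization and no scaling, miR-20a-5p was -0.21, -0.0622 and -0.11, miR-92a-3p -0.58, -0.11 and -0.47, miR-93-5p -0.32, -0.23 and -0.22, and miR-20b-5p -0.17, -0.17 and -0.0628. With median scaling miR-92a-3p was -0.30 and miR-93-5p -0.045, and with the total signal miR-92a-3p was -0.045. After normexp, miR-106b-5p was 0.75 and miR-25-3p 0.67, the ratios of miR-19b-3p and miR-93-5p to miR-20a-5p were -0.22 and 0.17, and that of miR-25-3p to miR-92a-3p was 0.0857. With the higher floor, by construction, the ratios of miR-18a-5p, miR-19a-3p and miR-20b-5p to miR-20a-5p were -0.47, -0.35 and -0.47, and that of miR-19a-3p to miR-19b-3p was -0.66. After quantile normalization the ratio of miR-20b-5p to miR-20a-5p was -0.11. By column number miR-106b-5p was 0.48, miR-25-3p 0.10 and miR-92a-3p -0.0831, and the ratios to miR-20a-5p were 0.37 for miR-106b-5p, -0.077 for miR-19b-3p and -0.0104 for miR-20b-5p. Without 1 array, miR-92a-3p was -0.0879 to 0.24, miR-25-3p -0.23 to 0.0099, and the ratio of miR-93-5p to miR-20a-5p -0.17 to 0.0073. The higher floor acts by construction and the column numbers regroup the arrays. The percentile over all probes, median scaling and no scaling differ from the main scaling by a factor per array. Each therefore shifts the differences of all miRNAs above the floor by the same amount, by construction. For the other settings the cause was not tested. Dim signals limit miR-18a-5p and miR-19a-3p, whose skin values lie at or near the floor.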
